A study of Mus musculus with 13 samples.

Results

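The genes described here encode the proteins of the mitochondrial ribosome, and were taken as every mouse gene whose symbol is Mrpl or Mrps followed by a number and at most 1 letter. The rule found 78 of the 27071 genes in the table, 49 with large subunit symbols (Mrpl) and 29 with small subunit symbols (Mrps). They were followed through RNA pull-downs with a fragment of dAKAP1, which anchors protein kinase A at the outer mitochondrial membrane and binds RNA. All RNA came from MA-10, a mouse Leydig tumour cell line, untreated before extraction, and the bait was added to the purified RNA and not to cells. In the 4 KHT libraries the bait was the KH and Tudor domains of dAKAP1 carrying a maltose-binding protein (MBP) tag, recovered with an antibody against MBP. In the negative control pull-downs (NEG) the bait was MBP alone, the protein KHT(GDDG) or nothing on the beads, and the labels do not say which library had which. The 4 IPT libraries held the RNA that went into the pull-downs. NEG 2 was 0 at every gene, so NEG had 4 libraries, numbered 1, 3, 4 and 5. Nothing in the labels says whether libraries of 1 group came from separate cultures, so p-values measure only the spread between these libraries, which may be technical. In NEG this spread may also include differences between the baits, which cannot be separated from it here.

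Mitochondria keep their own ribosome, which makes the few membrane proteins of the respiratory chain that mitochondrial DNA still encodes. Its ribosomal RNAs come from mitochondrial DNA, but all of its proteins are encoded in the nucleus, translated in the cytosol and imported. Many of these proteins descend from those of the bacterial ribosome, while others were added later and surround that older core. In Leydig cells mitochondria also hold the first step of steroid synthesis. dAKAP1 is known to bind messenger RNAs of mitochondrial proteins at the outer membrane, and the pull-downs ask which RNAs its KH and Tudor domains hold.

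NEG libraries were shallow where these genes are measured. Total estimated counts were 1955446 to 3689792 in KHT, 1162178 to 1618998 in NEG and 2487679 to 3085423 in IPT, and 9 features that each held at least 0.5% of the pooled NEG counts took 29.3% to 52.7% of KHT, 96.0% to 98.1% of NEG and 26.7% to 38.0% of IPT counts. Outside those features 929348 to 2101632 counts were left in KHT libraries, 31318 to 49062 in NEG and 1542713 to 2237374 in IPT. The Leydig label held in KHT and IPT, where all 10 Leydig markers had counts in every library. Counts were found for 1, 4, 4 and 9 of the 10 in NEG 1, 3, 4 and 5. Levels are given as normalised CPM, counts scaled to the library total multiplied by a scaling factor (TMM) from edgeR. These factors were 2.05 to 3.10 in KHT, 0.0994 to 0.201 in NEG and 2.70 to 3.13 in IPT. A CPM in NEG therefore lies above the share of the library total, and a CPM in KHT or IPT below it. Summed levels of the Leydig markers were 341 to 522 CPM in KHT, 8.49 to 396 CPM in NEG and 343 to 624 CPM in IPT. Sertoli cell markers summed to 25.1 to 48.7 CPM in KHT, 0 to 61.3 CPM in NEG and 28.8 to 47.7 CPM in IPT. Rhox5 held the whole NEG sum and 21.5 to 44.7 CPM of the KHT sum. Wt1 and Cldn11 were at 0 in KHT and NEG, and Amh, Dhh, Fshr and Sox9 were at 0 in NEG. Germ cell markers, 2 of 6 in the table, and peritubular markers stayed at or under 6.03 CPM in every library. Markers of macrophages and endothelium summed to 14.2 to 22.5 CPM in KHT, 28.6 to 157 CPM in NEG and 13.0 to 27.9 CPM in IPT, with 4 of 7 in the table and Cd68 and Ptprc at 0 in NEG. Epithelial markers summed to 2.76 to 29.5 CPM in KHT, 0 to 175 CPM in NEG and 0.564 to 5.54 CPM in IPT, with 4 of 5 in the table and Epcam and Krt8 at 0 in NEG. Their part in the differences from NEG below was not tested.

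The mitochondrial ribosomal protein genes together made up a similar slice of KHT and IPT libraries and a smaller one of NEG libraries. Counts give shares of each library, and the amount of RNA recovered was not measured. KHT 1 to 4 held 6615, 3578, 6936 and 3235 counts of them, NEG 1, 3, 4 and 5 held 39, 69, 59 and 157, and IPT 1 to 4 held 7709, 5781, 5561 and 7874. Per 10000 counts outside the 9 dominant features, the SD over 4 libraries taken as the error, this was 35.0 ± 2.18 in KHT, 19.8 ± 8.48 in NEG and 35.5 ± 0.415 in IPT. NEG spanned 12.5 to 32.0 per 10000 and stayed below the lowest KHT library, at 33.0, while KHT and IPT overlapped. The highest NEG value came from NEG 5, which also detected most of the genes: 45 of the 78 had a count there, against 10, 26 and 21 in NEG 1, 3 and 4. At least 77 of the 78 had a count in each KHT library and all 78 in each IPT library.

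Taken by subunit, NEG stood below KHT for the Mrpl genes and overlapped KHT for the Mrps genes. Mrpl genes had 21.7 to 24.3 counts per 10000 in KHT, 10.5 to 17.5 in NEG and 22.5 to 23.6 in IPT, so KHT and NEG did not overlap. Mrps genes had 11.4 to 13.7 per 10000 in KHT, 1.92 to 14.5 in NEG and 12.2 to 12.7 in IPT, and here NEG 5 lay above every KHT library. The ratio of Mrpl to Mrps counts was 1.77 to 1.91 in KHT, 1.21 to 5.50 in NEG and 1.77 to 1.89 in IPT. Whether large and small subunit genes differ in NEG beyond the spread of its libraries was not tested.

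**Figure D1:**
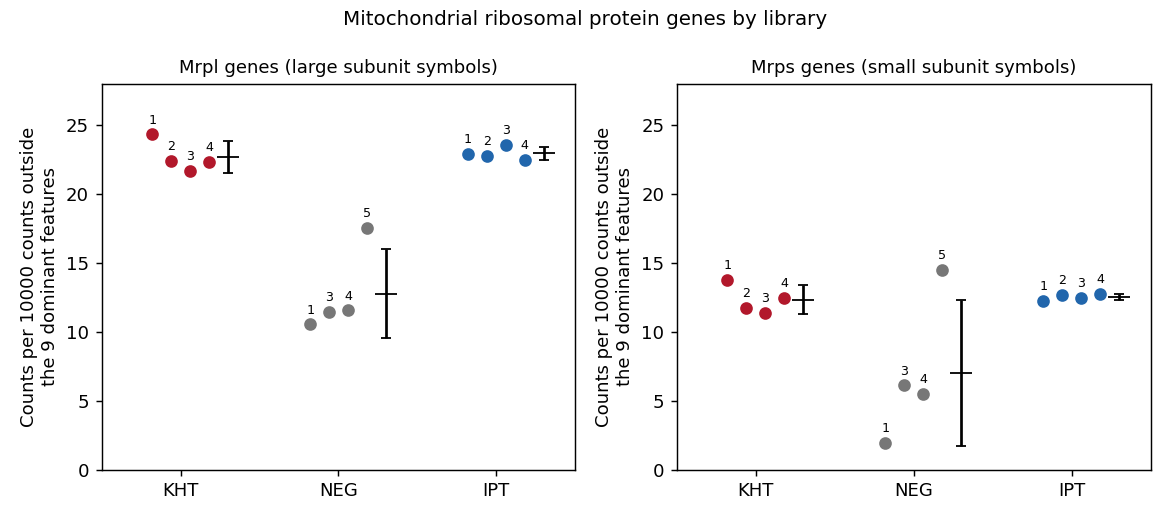
Counts of the 49 Mrpl genes (left) and 29 Mrps genes (right) per 10000 counts outside the 9 dominant features (y axis) in each library (points, with replicate numbers), by group (x axis), with the group mean and SD beside the points. For Mrpl genes KHT lies at 21.7 to 24.3, above every NEG library, and for Mrps genes NEG 5, at 14.5, lies above KHT.

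Set against NEG, 21 of the 77 genes that passed the filter on low counts were higher in KHT and 1 was lower. Among the higher genes, Mrpl18, Mrpl15 and Mrpl38 of the large subunit had the smallest adjusted p, as did Mrps27 among the Mrps genes. None of these had a count in any NEG library, so their order reflects their levels in KHT and not a measured fold. The lower gene was Mrpl21. The share higher was not above that of genes in general, since 31.0% of the 10714 genes tested were higher in KHT and 2.72% lower (edgeR quasi-likelihood test, Benjamini-Hochberg adjusted p of at most 0.05 over all genes). Of the Mrpl genes 16 of 48 were higher and 1 was lower, and of the Mrps genes 5 of 29 were higher and none lower. The gene not tested was Mrpl23, which has a pseudogene and so an uncertain count, with 14, 0, 0 and 2 counts in KHT, 0 in NEG, and 15, 2, 3 and 12 in IPT. The median log2 fold change of KHT over NEG was 1.46 for the 77 genes and 1.73 for all genes tested. With genes at 0 in NEG set to their lower bounds, the median of the 77 was 1.06, with 1.10 for the Mrpl and 0.98 for the Mrps genes.

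The calls depended on 2 NEG libraries and on the scaling. Without NEG 1, 12 genes were higher (15.0% of all genes tested), and without NEG 5, 39 were (47.2% of all), 20 of them shared with the 21, and 3 were lower. With library totals in place of TMM scaling, 77 of 77 were higher and none lower, against 97.3% of all genes higher and 0.131% lower, and the median of all genes moved to 5.66 on the log2 scale. Of the 22 calls, 9 held under every alternative tried: Mrpl11, Mrpl12, Mrpl15, Mrpl18, Mrpl30, Mrpl32, Mrpl36, Mrpl38 and Mrps27. All but Mrpl30 were at 0 in every NEG library, so leaving out a NEG library could not raise their NEG level. The share of all genes that held under every alternative was not taken.

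Most of the genes called had no count in NEG. In all 4 NEG libraries 18 of the 78 genes were at 0, 15 with Mrpl and 3 with Mrps symbols. Of the tested genes in this state, 17 of 77 (22.1%, against 27.9% of all genes tested), 14 were called higher. Among the 60 tested genes that had any NEG count, 7 were called higher and Mrpl21 lower. The shares called among all genes with and without a NEG count were not taken, so these counts do not set the ribosomal protein genes apart. A fold against a group at 0 is a lower bound here, computed as if the 4 NEG libraries had held 3 counts of the gene in all. These bounds, and the counting intervals below, reflect counting error alone. If the deposited values count both mates of a pair, which was not settled, the bounds are too high: with all counts halved, 7 of the 14 stay above 1, from 1.15 for Mrps27 to 2.30 for Mrpl18, and the other 7 lie between 0.698 for Mrpl44 and 0.997 for Mrpl36. With values halved before the fit, 14 genes were called higher (26.5% of all genes tested), 13 of them shared with the 21, and Mrpl41, Mrpl44, Mrpl47, Mrpl57, Mrps16, Mrps18a, Mrps23 and Mrps30 were lost.

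**Figure D2:**
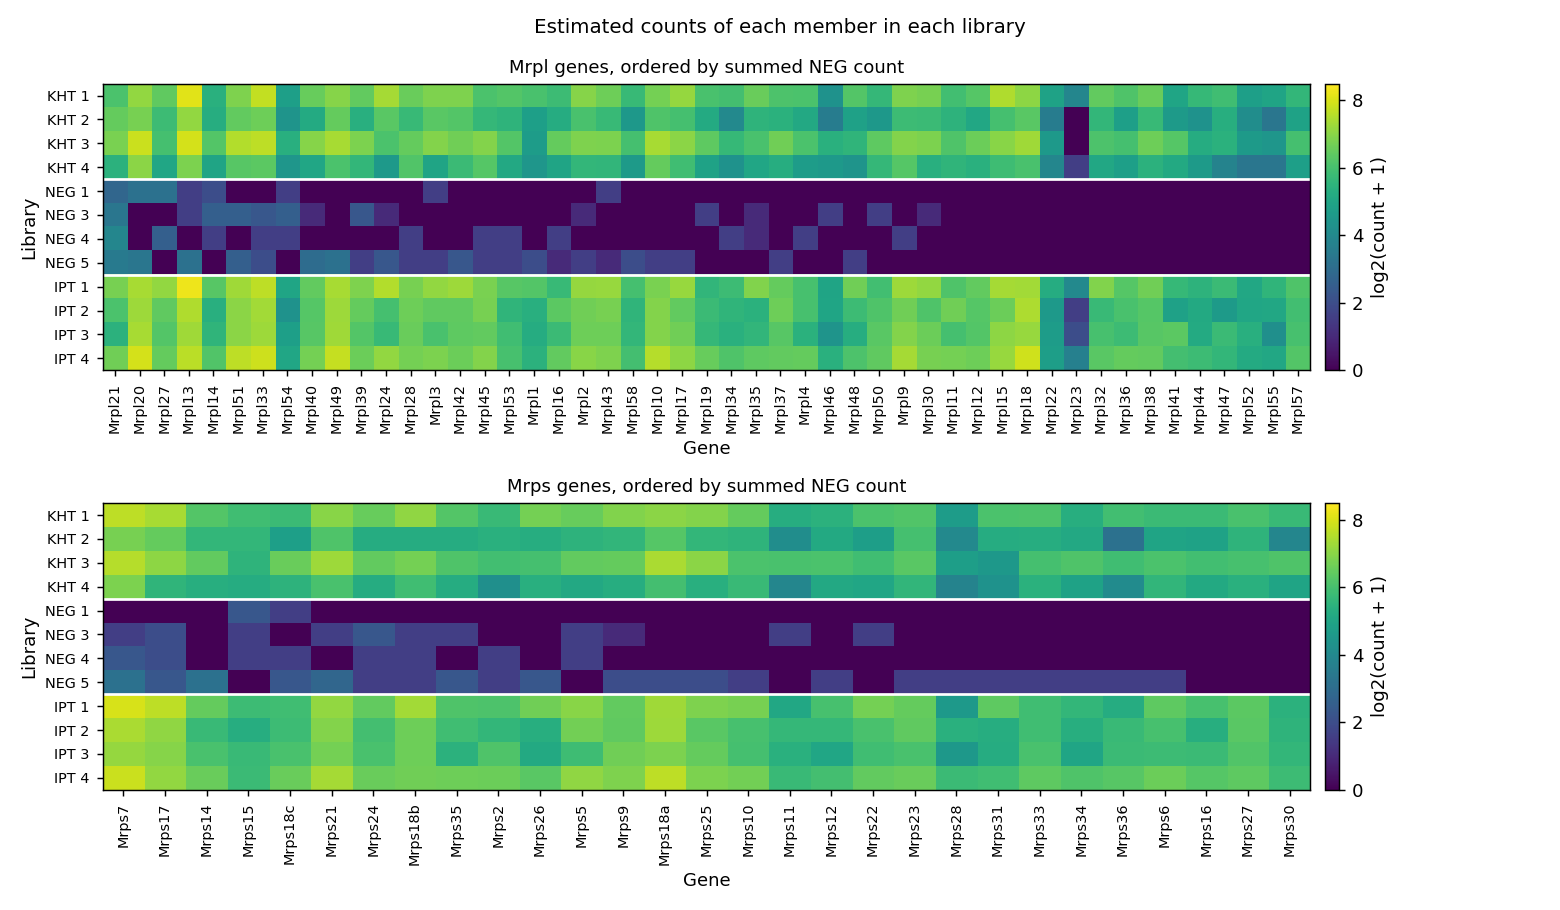
Estimated counts, as log2(count + 1) in colour, of each Mrpl gene (top) and Mrps gene (bottom) on the x axis in each library on the y axis, with white lines between KHT, NEG and IPT and genes ordered by their summed NEG count. Counts in NEG are few and scattered, with NEG 5 holding more than any other, and 18 genes on the right of the panels have none, while KHT and IPT have counts throughout except for Mrpl23.

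Mrpl18, the counterpart of the bacterial protein that binds the smallest ribosomal RNA, had the largest bound. Some genes with a NEG count had higher ratios, such as 9.98 for Mrpl30. It had 131, 79, 156 and 65 counts in KHT 1 to 4, none in NEG, and 159, 174, 146 and 233 in IPT 1 to 4. This came to 17.2 ± 0.812 CPM in KHT and 0 CPM in NEG (SD, n = 4 each), at least 4.59-fold higher in KHT (edgeR adjusted p = 0.00346). All 4 KHT libraries lay between 16 and 19 CPM, and no NEG library had a read. The gene lies at chr17:12911345-12917787 in the build GRCm38.p6. The stretch before its RefSeq transcription start and the first bases of the transcript are shown because this gene had the smallest adjusted p (chr17:12916062-12916328, minus strand). The start used, at 12916091, lies inside the gene interval given, as does the stretch shown. This stretch ends before the start of the neighbouring Tcp1 and holds none of the motifs shown in capitals for other genes.
Mrpl18: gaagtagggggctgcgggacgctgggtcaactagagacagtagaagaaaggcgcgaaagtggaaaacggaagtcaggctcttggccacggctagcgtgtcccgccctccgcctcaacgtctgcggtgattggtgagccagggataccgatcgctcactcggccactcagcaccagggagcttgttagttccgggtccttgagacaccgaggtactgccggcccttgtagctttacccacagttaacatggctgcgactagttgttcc

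Other large subunit genes at 0 in NEG followed. Mrpl15, the counterpart of a bacterial core protein, had 178, 63, 125 and 57 counts in KHT, none in NEG and 164, 96, 132 and 146 in IPT, at least 4.51-fold higher in KHT than in NEG (edgeR adjusted p = 0.00421). Its KHT 1 library stood at 23.4 CPM, with the other 3 at 14.1 to 14.4 CPM. Mrpl38, a large subunit protein with no bacterial counterpart, had 93, 52, 97 and 43 counts in KHT and 101, 76, 78 and 86 in IPT, and was at least 3.04-fold higher in KHT than in NEG (edgeR adjusted p = 0.00482). Its KHT libraries were even, at 11.4 ± 0.728 CPM (SD, n = 4).

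Genes of the stalk that recruits translation factors to the ribosome were among those called, a grouping made after their values were seen. Mrpl12, the stalk protein itself, which in human mitochondria also binds the mitochondrial RNA polymerase, had 75, 33, 95 and 41 counts in KHT, none in NEG and 86, 75, 73 and 98 in IPT, at least 2.60-fold higher in KHT than in NEG (edgeR adjusted p = 0.00661). Mrpl11, of the stalk base, had 60, 44, 71 and 46 counts in KHT, none in NEG and 71, 99, 63 and 104 in IPT, at least 2.36-fold higher (edgeR adjusted p = 0.0101). Mrpl10, which ties the stalk to its base, had 104, 71, 168 and 88 counts in KHT, 0, 0, 0 and 2 in NEG and 109, 121, 121 and 187 in IPT. Its ratio of KHT to NEG was 6.89 (95% counting interval 1.90 to 57.1; edgeR adjusted p = 0.0140), and the call was lost without NEG 1, with a log2 fold change of 2.34.

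Mrpl32, which in mitochondria is cut by a membrane protease before it enters the ribosome, was at least 2.52-fold higher in KHT than in NEG. It had 86, 48, 69 and 33 counts in KHT and none in NEG. Mrpl36, a small protein kept from bacteria, had 70, 27, 63 and 27 counts in KHT and none in NEG, at least 1.99-fold higher. Mrpl30 had 107, 54, 111 and 40 counts in KHT and a single count, in NEG 3, with a ratio of 9.98 whose 95% counting interval ran from 1.78 to 395. The remaining Mrpl genes called higher were Mrpl2, Mrpl9, Mrpl17, Mrpl41, Mrpl44, Mrpl47 and Mrpl57, with bounds or ratios between 1.40 for Mrpl44 and 6.27 for Mrpl17. Of these, Mrpl2 encodes a protein near the centre where peptide bonds form, and its 122, 65, 116 and 49 counts in KHT stood against 0, 1, 0 and 2 in NEG.

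**Figure D3:**
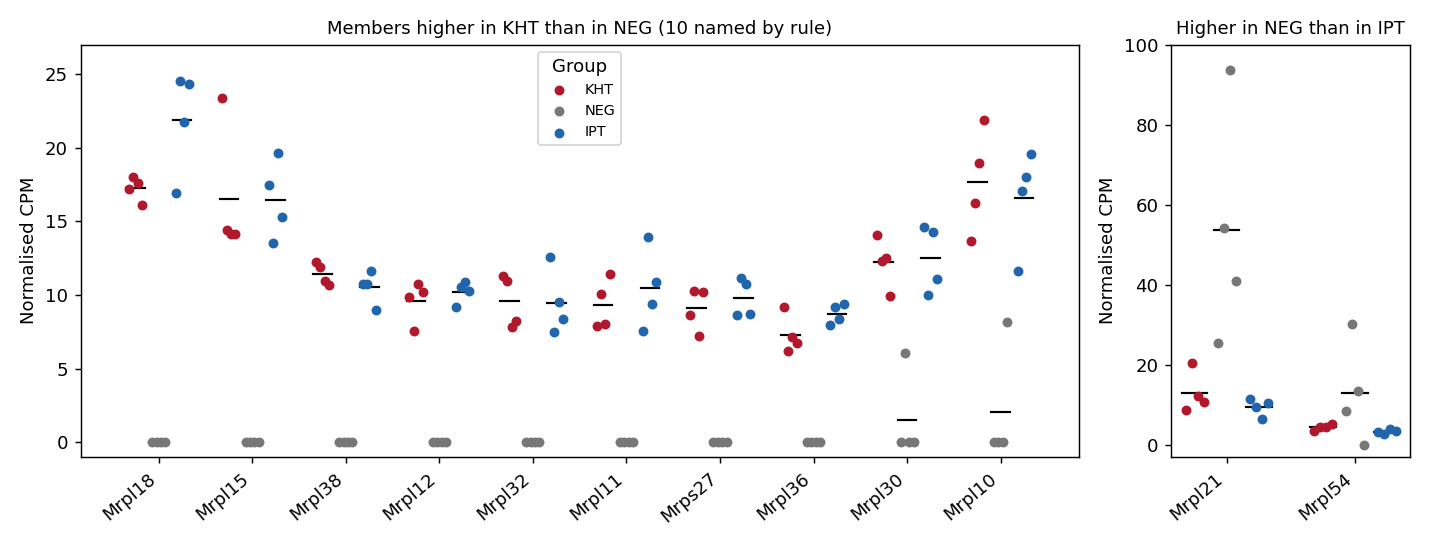
Normalised CPM (y axis) of single genes (x axis) in each library (points) of KHT, NEG and IPT, with group means as bars. Left, the 10 genes higher in KHT than in NEG that the naming rule took, where Mrpl30 and Mrpl10 have 1 NEG library above 0 and the others none, and where KHT and IPT overlap for each gene. Right, Mrpl21 and Mrpl54, which were higher in NEG than in IPT under TMM scaling and lower with library totals.

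Of the small subunit symbols, Mrps27, Mrps16, Mrps30, Mrps18a and Mrps23 were higher in KHT. Mrps27, an RNA-binding protein of the pentatricopeptide repeat family, had 66, 45, 64 and 41 counts in KHT, none in NEG and 81, 79, 72 and 83 in IPT, at least 2.30-fold higher in KHT than in NEG (edgeR adjusted p = 0.00791). Mrps16, kept from bacteria, had 54, 29, 60 and 35 counts in KHT and none in NEG, at least 1.90-fold higher. Mrps23 had 72, 62, 79 and 47 counts in KHT and 0, 0, 0 and 2 in NEG (edgeR adjusted p = 0.0464). Its call held under 7 of 22 alternatives, and was lost in DESeq2 and on leaving out any KHT or IPT library. Mrps30 and Mrps18a sit in the large subunit in structures of the mammalian mitochondrial ribosome despite their symbols. Counted by structure, 18 of 50 large subunit genes and 3 of 26 small subunit genes were higher in KHT. These counts, and those of the classes below, stand beside 31.0% of all genes tested. Large subunit genes with a bacterial counterpart gave 12 of 29 higher, those without one 6 of 21, small subunit genes with a counterpart 1 of 16 and those without one 2 of 10, and the differences between these classes were not tested. The sequence around the start of Mrps27 is shown because this gene had the smallest adjusted p of the Mrps genes. The stretch shown is chr13:99344679-99344815, plus strand, from the base after the start of its neighbour Ptcd2. Capitals mark matches to an ETS family motif and to a YY1 motif.
Mrps27: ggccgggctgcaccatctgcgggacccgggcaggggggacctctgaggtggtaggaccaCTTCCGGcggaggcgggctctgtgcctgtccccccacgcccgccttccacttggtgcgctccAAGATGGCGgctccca

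The Mrps18 genes form a family of 3 related proteins, of which Mrps18a was called higher in KHT than NEG. It had 128, 75, 170 and 61 counts in KHT and 0, 0, 0 and 3 in NEG, a ratio of 4.63 (95% counting interval 1.57 to 22.5, edgeR adjusted p = 0.0269). The call was lost without NEG 1, without NEG 3 and without NEG 4, with log2 fold changes of 1.72, 1.88 and 1.93. It was also lost in the fit of only the 2 groups compared, at 2.07, and with values halved, at 1.84. Mrps18b had 134, 37, 104 and 58 counts in KHT and 0, 2, 2 and 2 in NEG, with a log2 fold change of 0.78 (95% interval -0.53 to 2.08) that did not pass the test. Mrps18c had 54, 27, 93 and 44 counts in KHT and 2, 0, 2 and 4 in NEG, with a log2 fold change of -0.20 (95% interval -1.40 to 1.00). Mrps18b and Mrps18c overlapped between KHT and NEG, and Mrps18a did not. Whether the 3 genes differ from each other was not tested. Mrpl58, a peptidyl-tRNA hydrolase that frees stalled ribosomes, and Mrps36, now counted as a part of the alpha-ketoglutarate dehydrogenase complex in the mitochondrial matrix, had log2 fold changes of 0.74 and 1.06 that did not pass, and NEG 5 alone held their NEG counts. Mrpl58 was called higher without NEG 5 (edgeR adjusted p = 0.0181) and with the replicate number as a block (edgeR adjusted p = 0.0239). In these settings 47.2% and 47.1% of all genes were called higher, and Mrps36 was not called.

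Mrpl21, a large subunit protein with a bacterial counterpart, was lower in KHT than in NEG under TMM scaling and higher with library totals. Its counts were 67, 90, 109 and 43 in KHT, 6, 9, 14 and 10 in NEG, and 107, 68, 43 and 100 in IPT. Its normalised CPM was 13.1 ± 5.18 in KHT libraries, 53.6 ± 29.2 in NEG libraries and 9.46 ± 2.17 in IPT libraries (SD over 4 libraries a group). It was the 1 gene of the 78 with a count in every NEG library, and no NEG library overlapped KHT or IPT in CPM. The log2 fold change of KHT over NEG was -1.97 (SE 0.43, edgeR adjusted p = 0.00449), against 2.11 with library totals, where the median of all genes was 5.66. Across all genes, 1.02% lay wholly below NEG in KHT and 45.8% wholly above, and of the 78 genes 1 lay below, Mrpl21, and 26 above. The gene lies at chr19:3282997-3292837, and its RefSeq start faces that of Ighmbp2, 32 bases away. The start used, at 3283042, lies inside this interval, as does the stretch shown. The sequence between the starts and the first bases of the Mrpl21 transcript are shown because it was the 1 gene called lower (chr19:3283011-3283071, plus strand), with an ETS family match in capitals.
Mrpl21: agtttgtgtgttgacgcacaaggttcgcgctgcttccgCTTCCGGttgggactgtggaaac

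Against the input RNA, no mitochondrial ribosomal protein gene was called higher or lower in KHT. The counts were 0 of 77 in either direction in edgeR, against 0.00933% of all genes higher and 0% lower, and 0 of the 77 reached an unadjusted p under 0.05, against 175 of 10714 genes. DESeq2 and limma voom also called 0 of the 77, with 1 and 0 at an unadjusted p under 0.05. The log2 fold changes of KHT over IPT ran from -0.54 for Mrpl55 to 0.45 for Mrpl21, with a median of 0.0066 against 0.0083 for all genes tested, and 40 of 77 were positive. The data bound this more closely than the comparison with NEG, because the 95% intervals reached a median of 0.65 to either side against 1.68 for KHT over NEG. For 67 of the 77 the interval lay within a log2 change of 1 in either direction, and over all 77 the intervals spanned -1.37 to 1.23.

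The genes at the ends of that range overlapped between KHT and IPT. Mrpl55, a large subunit protein, had 30, 9, 21 and 9 counts in KHT and 46, 33, 18 and 33 in IPT, a log2 fold change of -0.54 (95% interval -1.37 to 0.28). Mrpl52, added to the ribosome after the split from bacteria, had 27, 17, 24 and 9 counts in KHT and 33, 32, 40 and 36 in IPT, a log2 fold change of -0.51 (95% interval -1.28 to 0.27). These were the lowest values of the 77. At the upper end, Mrpl21 had a log2 fold change of 0.45 (95% interval -0.24 to 1.14) and Mrpl54 of 0.41 (95% interval -0.41 to 1.23). Mrpl18, with the smallest adjusted p of the genes above NEG, had a log2 fold change of -0.34 (95% interval -0.90 to 0.22). Its level was 17.2 ± 0.812 CPM in KHT and 21.9 ± 3.54 CPM in IPT (SD, n = 4 each). Mrpl57 was the 1 gene of the 78 whose KHT libraries all lay below IPT, at 6.66 ± 0.288 CPM against 8.27 ± 0.948 CPM in IPT (SD, n = 4 each), while 1.17% of all genes did so, and no gene of the 78 lay wholly above, against 0.840% of all genes.

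**Figure D4:**
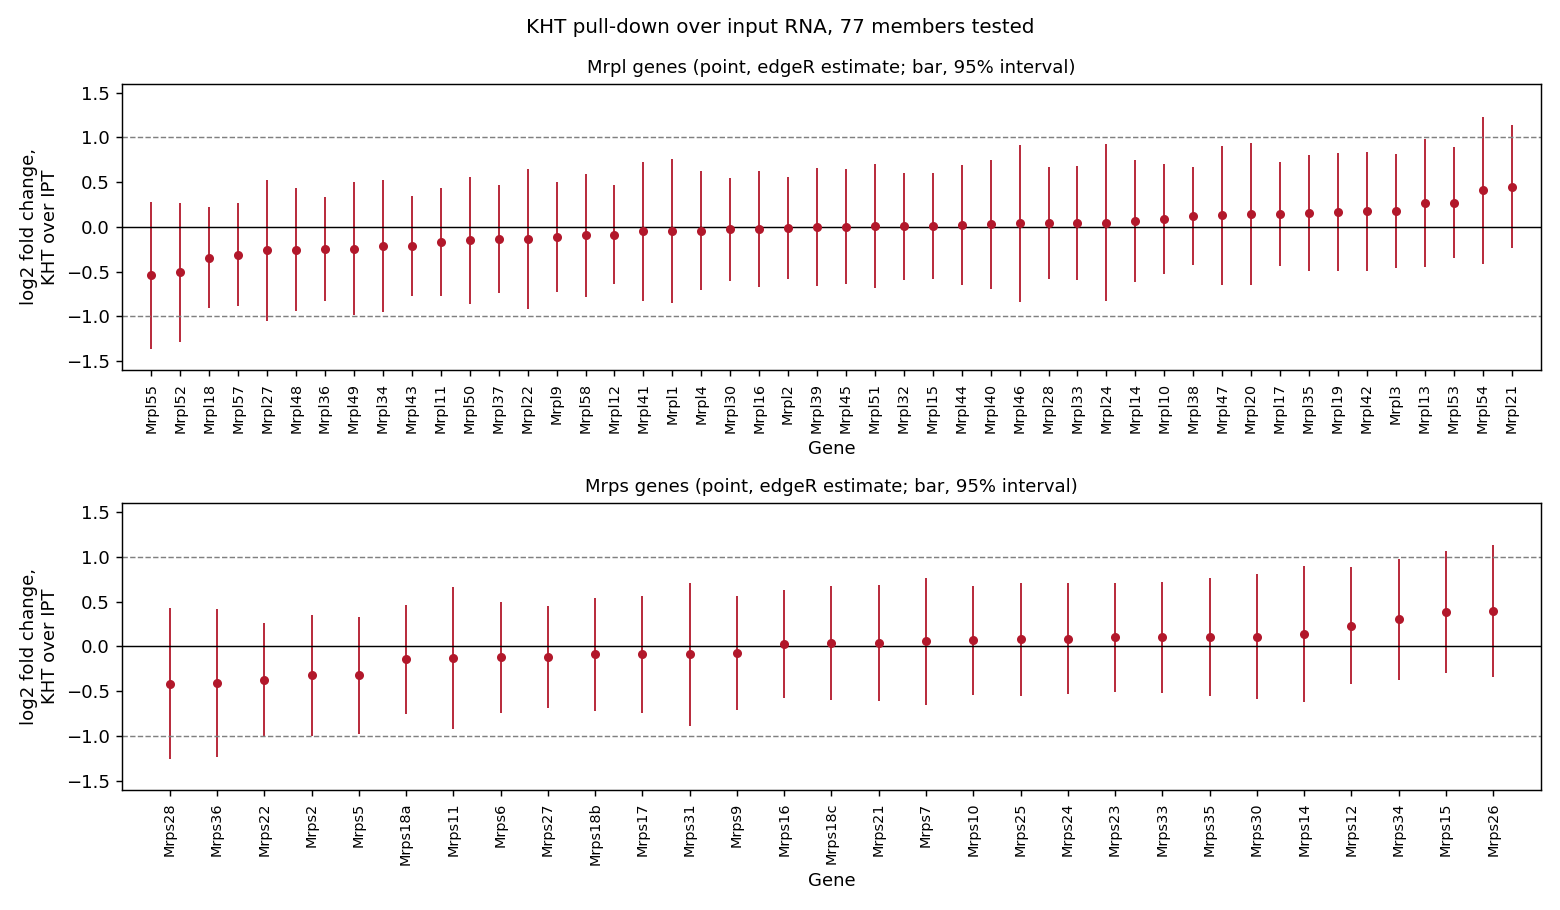
Log2 fold change of KHT over IPT (y axis, points) with its 95% interval (bars) from edgeR for the 48 Mrpl genes (top) and 29 Mrps genes (bottom) tested, in rising order along the x axis, with dashed lines at a log2 change of 1 in either direction. Every interval contains 0, and the points run from -0.54 to 0.45.

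Large and small subunit genes had nearly equal medians against the input. The median log2 fold change of KHT over IPT was -4.49e-05 for 48 Mrpl and 0.04 for 29 Mrps genes, and by structure it was 0.04 for 26 small subunit genes. Counts are not scaled by transcript length, so they do not rank genes by transcript number. Mrpl13, of the large subunit core, had 30.7 ± 4.03 CPM in KHT and 25.5 ± 5.47 CPM in IPT. Mrps7, which helps form the head of the small subunit, had 24.9 ± 3.10 CPM in KHT and 23.9 ± 2.55 CPM in IPT (SD, n = 4 each).

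The comparison of NEG with IPT shares its NEG libraries with that of KHT with NEG. In NEG 24 of the 77 genes were lower than in IPT and 2 were higher, against 32.5% of all genes lower and 3.64% higher in NEG. Of the Mrpl genes 20 of 48 were lower and 2 higher, and of the Mrps genes 4 of 29 were lower and none higher. Mrpl21 was higher in NEG than in IPT, with a log2 fold change of 2.42 (SE 0.43, edgeR adjusted p = 0.00148), and -1.95 with library totals. Mrpl54, a large subunit protein with no bacterial counterpart, had 2, 5, 2 and 0 counts in NEG and 31, 19, 27 and 32 in IPT, with a log2 fold change of 1.80 (edgeR adjusted p = 0.0359), and it overlapped IPT in CPM, with NEG 5 at 0. In CPM, 30 of the 78 genes lay wholly below IPT in NEG and 1 wholly above, against 47.1% and 1.74% of all genes. Without NEG 1, 12 genes were lower (15.6% of all genes tested), without NEG 5, 39 were (47.4% of all), and with library totals 77 were lower and none higher (97.3% of all lower). The call of Mrpl54 was lost without NEG 1, NEG 3, NEG 4, IPT 2 or IPT 4. Of the 26 calls 11 held under every alternative tried, and all of these but Mrpl30 were at 0 in every NEG library.

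Among replicates these genes had a lower median spread than genes in general. The median coefficient of variation of CPM was 19.0% in KHT and 16.9% in IPT for the 77 genes, and 24.2% in KHT and 21.3% in IPT for all genes tested. KHT 1 was the highest KHT library for 30 of the 77 genes (39.0%), against 24.6% of all genes. Mrpl24, which helps start large subunit assembly in bacteria, varied most in KHT, with 161, 79, 68 and 23 counts in KHT and 184, 63, 52 and 139 in IPT. Its KHT coefficient of variation was 57.8%, and its log2 fold change of KHT over IPT, 0.05, had a 95% interval of -0.83 to 0.93. Mrps36, with a named pseudogene and so an uncertain count, had 60, 8, 58 and 16 counts in KHT and 37, 53, 55 and 78 in IPT.

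Other genes of mitochondrial translation were set beside the ribosomal proteins as a list of 51, of which 46 were tested. Of these, KHT had 13 above NEG and 2 below it by the same test, and none called against IPT. These counts and those of the classes below stand beside 31.0% of all genes higher and 2.72% lower, so the list as a whole was near the share of all genes. Of 5 ribosomal proteins with other symbols, Dap3, a GTP-binding protein of the small subunit, was higher, with 172, 96, 178 and 84 counts in KHT and 0, 0, 0 and 4 in NEG (log2 fold change 2.10, edgeR adjusted p = 0.0263). Assembly and modification genes gave 6 of 22 higher, among them Dhx30, an RNA helicase, with 157, 83, 151 and 53 counts in KHT and a count of 2 in NEG 1 only. Translation factors gave 4 of 11 higher, among them Mrrf, the ribosome recycling factor. Lrpprc, which stabilises mitochondrial messenger RNAs, had 484, 253, 411 and 179 counts in KHT and 0, 0, 2 and 8 in NEG (log2 fold change 2.11, edgeR adjusted p = 0.0238).

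The 2 lower genes were the mitochondrial ribosomal RNAs, which the library kit is meant to deplete, and neither was called with library totals, where the sign turned, or without a filter on low counts. mt-Rnr1, the small subunit RNA, had 3946, 3598, 49089 and 3346 counts in KHT, 3961, 2570, 2763 and 2894 in NEG, and 6915, 5398, 5428 and 6741 in IPT. Its log2 fold change of KHT over NEG was -3.02 (edgeR adjusted p = 0.0120). It was 1.06 with library totals (edgeR adjusted p = 0.265) and -2.70 without a filter (edgeR adjusted p = 0.264). mt-Rnr2, the large subunit RNA, had 20503, 19215, 97107 and 15981 counts in KHT and 12791, 8857, 11463 and 11184 in NEG, with a log2 fold change of -3.39. It was 0.70 with library totals (edgeR adjusted p = 0.460) and -3.08 without a filter (edgeR adjusted p = 0.288). Both RNAs were far higher in KHT 3 than in the other KHT libraries. Without KHT 3 the log2 fold change of KHT over IPT was -0.06 for mt-Rnr1 and -0.02 for mt-Rnr2, against 1.36 and 0.56 with it.

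Some of the genes shared features of position that the counts did not use. RefSeq promoters of the build GRCm38.p6 were matched by symbol for 69 of the 78, and none was found for Mrpl4, Mrpl13, Mrpl15, Mrpl19, Mrpl38, Mrpl54, Mrps28, Mrps34 and Mrps35. In 24 of the 69 (34.8%) another gene on the opposite strand started within 1000 bases upstream, against 8.48% of 17491 protein-coding genes. The 17491 were not limited to genes detected in these libraries. Among these pairs, Mrpl18 started 238 bases from Tcp1, a subunit of the cytosolic chaperonin, and Mrps27 started 108 bases from Ptcd2. Mrpl46 of the large subunit and Mrps11 of the small subunit faced each other, with starts 42 bases apart on chromosome 7. Both are counted among the 24. Mrpl46 had 19, 11, 41 and 23 counts in KHT, 0, 2, 0 and 0 in NEG and 30, 31, 20 and 41 in IPT, and Mrps11 had 38, 17, 66 and 14 in KHT, 0, 2, 0 and 0 in NEG and 33, 50, 41 and 53 in IPT. Neither was called in any comparison, and both had their NEG counts in NEG 3. The sequence between their starts, read on the Mrpl46 strand and followed by the first bases of Mrpl46, is shown as the stretch that lies between genes of both subunits (chr7:78783060-78783130, minus strand).
Mrpl46: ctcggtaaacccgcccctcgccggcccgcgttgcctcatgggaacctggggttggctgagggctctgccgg

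Motifs were searched as exact letters on both strands from 250 bases before to 50 after each start. The ETS family motif CCGGAAG was found in 26 of 69 promoters (37.7%), against 12.9% of 17491 protein-coding genes. The NRF1 motif GCGCATGC was found in 8 (11.6%), against 3.93%, and the YY1 motif AAGATGGCG in 8 (11.6%), against 2.14%. The factors NRF1 and YY1 and the ETS family are known regulators of nuclear genes for mitochondrial proteins. Promoters were not measured in these pull-downs of RNA. Called higher in KHT than NEG were 7 of 26 tested genes with the ETS family motif and 12 of 42 without it, 4 of 8 with the NRF1 motif and 15 of 60 without it, 3 of 8 with the YY1 motif and 16 of 60 without it, and 8 of 24 with a start facing theirs and 11 of 44 without one. These counts stand beside 31.0% of all genes tested, and the differences were not tested.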

How the data were processed

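RNA was measured in 13 libraries of MA-10 RNA. The values deposited by the authors are unscaled estimated counts for each gene. The submitters' processing notes name kallisto, DESeq2, GRCm38 and mm10 without versions or roles, and the step from transcripts to genes was not given there. Per the labels' protocols, libraries came from a stranded total RNA kit with ribosomal RNA depletion, while the molecule field names polyA RNA. KHT libraries were grouped by title and treatment, although their description speaks of negative controls. Symbols matched 27004 of 27071 identifiers.

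The estimated counts were whole, so rounding changed none. Values of 2 outnumber values of 1 in NEG (55 against 9 of 312 values of these genes), a pattern that counting both mates would produce. This was left unsettled, and if so counting intervals are too narrow and lower bounds too high. The 12 libraries with counts entered 1 edgeR fit (4.0.16 in R 4.3.3; glmQLFit robust, glmQLFTest, TMM, filterByExpr, 10714 genes kept), two-sided, Benjamini-Hochberg over all genes, threshold 0.05. Alternatives were other scalings, filters of no minimum and of a mean of 10 CPM, DESeq2 1.42.0, limma voom 3.58.1, 2 groups only, a replicate block, halved values and each library left out.

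The naming rule took, per comparison, called genes averaging 5 CPM or more whose groups did not overlap, the 10 largest and 6 smallest changes, the 3 of each subunit highest in IPT, 8 fixed genes, and up to 4 companions. Other genes named were chosen after their values were seen. The members and lists were chosen with earlier results of these data known.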

Additional observations from a re-analysis of the deposited data

Results flagged for a closer look

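Of 114 groups of 4 libraries examined, 15 had 1 library far from the other 3 by Dixon's test, and chance flags about 1 in 20 groups. In NEG several flags arise where 3 libraries were at 0 and 1 was not. NEG 5 stood apart for the Mrpl genes together (17.5 per 10000 counts outside the dominant features, the others 10.5 to 11.6), for Mrpl10, Mrps31 and Mrps36 (8.17 CPM each, the others at 0) and for Mrpl58 and Mrps18a (12.3 CPM each, the others at 0). NEG 3 stood apart for Mrpl30 (6.03 CPM) and Mrrf (12.1 CPM), and NEG 1 for Dhx30 (8.49 CPM), again with the others at 0.

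In KHT, KHT 1 was high for Mrpl15 (23.4 CPM, the others 14.1 to 14.4) and Mrpl55 (3.94 CPM, the others 2.06 to 2.37), KHT 4 was low for Rpusd4 (0.994 CPM, the others 2.26 to 2.51) and KHT 3 was high for mt-Rnr1 (5544 CPM, the others 518 to 831). In IPT, IPT 1 was low for Mrps36 (3.94 CPM, the others 7.47 to 8.19) and high for Mrrf (16.9 CPM, the others 9.08 to 9.20).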

How the results depend on the processing

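For KHT with IPT, 0 of the genes tested were called in either direction under every alternative. For KHT with NEG, library totals gave 77 higher and 0 lower, DESeq2 gave 2 lower, and leaving out 1 library gave 12 to 39 higher and 1 to 3 lower. For NEG with IPT, library totals gave 0 higher and 77 lower, the fit of 2 groups 15 lower, and no filter, a mean of at least 10 CPM, limma voom and halved values 1 higher each; leaving out 1 library gave 1 to 3 higher and 12 to 39 lower. The median log2 fold change of all genes went with the totals, 5.66 for KHT over NEG against 1.73 with TMM, -5.90 for NEG over IPT against -1.74, and -0.24 for KHT over IPT against 0.01. By structure in place of symbol, the small subunit genes called were 3 in place of 5 for KHT with NEG and 2 in place of 4 for NEG with IPT. The cause was not tested.

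Reversed log2 fold changes with library totals were, for KHT over NEG, Mrpl21 2.11, Mrps18c 3.80, mt-Rnr1 1.06 and mt-Rnr2 0.70, and for NEG over IPT, Mrpl21 -1.95, Mrps18c -4.02 and mt-Rnr2 -0.42. Mrps18c, not called, was also 0.11 without a filter and 0.28 with the block for KHT over NEG, and -0.087 and -0.25 for NEG over IPT. Leaving out 1 library gave Mrps18c -0.52 to 0.32 for KHT over NEG and -0.29 to 0.56 for NEG over IPT, and for KHT over IPT gave mt-Rnr1 -0.059 to 1.67 and mt-Rnr2 -0.022 to 0.79.

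Same-numbered KHT and IPT libraries did not stand out as pairs. This was read from deviations of log CPM from each gene's group mean, not from whole profiles. Over 10714 genes these deviations correlated at 0.13, -0.33, 0.20 and 0.08 between same-numbered KHT and IPT libraries. Those of different numbers ran from -0.48, for KHT 3 with IPT 1, to 0.51, for KHT 2 with IPT 1. For KHT with NEG the same-numbered values were -0.105, -0.124 and 0.067, and for NEG with IPT 0.090, -0.0079 and -0.013. Whether same-numbered libraries shared a culture or batch cannot be read from these values. With the replicate number as a block, 36 genes were higher and 2 lower for KHT with NEG (47.1% and 3.34% of all genes), and 3 higher and 40 lower for NEG with IPT (4.10% and 46.9% of all genes). Shallow NEG libraries limit every comparison with NEG.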
